A study of Mus musculus with 8 samples.

Results

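Icam1, Vcam1, Nfkb1, Nfkb2, Relb, Nfkbia, Tnfaip3, Il6, Lif and Ptgs2 are textbook targets or components of the transcription factor NF-kB, and they were followed here in mouse vascular smooth muscle cells after knockdown of Uhrf1. Every probe that the platform annotation gives to 1 of these 10 symbols was taken, which gave 12 of the 25669 probes of the array table, for 9 of the 10 genes, out of 16582 genes with a probe. Nfkb1 had no such probe and was not analysed here. A probe was tested where at least 1 group had it detected on each of its 4 arrays, that is with a detection p (the chance of so bright a signal from background beads) under 0.05. 8 of the 12 probes, for 7 genes, passed that filter, and the 4 others (1 of Il6, 1 of Lif and both of Ptgs2) are described without a test.

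NF-kB is a family of paired subunits held in the cytoplasm by inhibitor proteins of the IkB family. Signals from cytokine and innate immune receptors activate kinases that mark these inhibitors for destruction, after which the subunits enter the nucleus and switch on genes for adhesion molecules, cytokines and their own inhibitors. In the vessel wall the pathway is known for recruiting leukocytes to inflamed smooth muscle and endothelium.

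The cells were primary vascular smooth muscle cells (VSMC) from male C57Bl6/J mice 8 weeks old, a culture of the contractile cells of the vessel wall. Lentivirus brought in a short hairpin RNA, scrambled in the controls (shSCR) and specific for Uhrf1 in the knockdown (shUHRF1), all cells went through 2 days of puromycin selection, and RNA was taken at day 5. Each group held 2 RNA samples, and each RNA sample was measured on 2 Illumina bead arrays, here its first and second array. The labels do not say whether the samples came from separate cultures or animals, or whether the shUHRF1 samples carry 1 hairpin or different ones, so the spread behind each p-value is that of these samples alone and may be technical.

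The targeted gene followed its labels, since the detected Uhrf1 probe lay between 11.45 and 11.62 on the normalized log2 scale in shSCR and between 8.39 and 9.40 in shUHRF1, a 6.74-fold lower signal (log2 difference -2.75, SE 0.23, limma adjusted p = 0.167). Median raw signals were 103.4 to 123.3 per array, and 45.1% to 48.2% of probes were detected. Of 7 smooth muscle markers, Acta2, Tagln and Smtn were detected on all 8 arrays, Des on 4, and Myh11, Cnn1 and Myocd, which also define the mature contractile cell, on none. Among markers of other cells, the endothelial genes Cdh5, Vwf, Emcn and Tie1 and the leukocyte and macrophage genes Ptprc, Adgre1 and Itgam were not detected on any array. Other genes of these lists were detected, Egfl7 and Cd14 on 8 arrays, Kdr and Aif1 on 6, and Tek and Lyz2 on 4, each by its most often detected probe, and Pecam1 on 1. Summed raw signals of the endothelial markers spanned 1521 to 1692 in shSCR and 1480 to 1630 in shUHRF1, those of the leukocyte markers 1701 to 1890 and 1691 to 1921. Fibroblast markers, of which Dpep1 alone of 7 was not detected anywhere, spanned 819 to 1066 in shSCR and 961 to 1851 in shUHRF1, and smooth muscle markers 17161 to 33101 and 26149 to 53054. These sums took in every probe of a list, also the undetected ones, without background correction or normalization. Background therefore enters each sum, and near-equal ranges do not show equal cell content. Of the tested marker genes, 3 of 3 smooth muscle genes stood higher in shUHRF1 (median log2 difference 0.57), 2 of 2 endothelial genes lower (-0.46), and of the leukocyte genes Cd14 stood at -0.26 and Aif1 at 0.037. Of all 7502 tested genes 3635 stood higher. The smooth muscle differences were 1.27 (SE 0.20) for Tagln, 0.57 (SE 0.30) for the brightest Acta2 probe and 0.12 (SE 0.18) for Smtn. The Acta2 and Smtn arrays overlapped between groups, and the Acta2 controls differed by 0.89. The other Acta2 probes stood at 0.76 to 1.25. The 4 tested fibroblast genes had a median of 0.66, made of 0.16 in shUHRF1 sample 1 and 1.05 in sample 2, since Dpt (-0.58 and 1.43) and Pdgfra (-0.55 and 0.76) were lower in sample 1 and higher in sample 2. Kdr and Dpt entered the test only through shSCR, detected on 2 and 3 shUHRF1 arrays. Scara5 and Aif1 entered only through shUHRF1, each detected on 2 shSCR arrays. The directions of these genes are therefore no support, and the marker counts and medians that hold them are a description. The part of these cell types in the member results was not tested. Fewer cells of a type cannot be told apart from less RNA per cell in such bulk samples.

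The NF-kB sites just upstream of the members are shown first, because Icam1, Nfkbia and Tnfaip3 share 1 short site there. In the arrays Icam1 and Nfkbia stood higher in shUHRF1 cells, and the Tnfaip3 groups overlapped. RefSeq windows (GRCm38.p6) were given for 7 of the 10 genes, 10 windows in all since some genes have several starts, and the 250 bases before each start were searched on both strands. The letters GGAAATTCC, or their reverse complement, stood before the starts of Icam1, Nfkbia and Tnfaip3, in 3 of the 10 member windows against 0.286% of all 32851 RefSeq windows of that length. A kappaB consensus, GGGRNNYYCC (R for A or G, Y for C or T, N for any base), was in 7 of the 10 member windows, against 7.25% of all windows. These were windows of the genes Nfkb2, Nfkbia, Tnfaip3, Il6 and Lif. Several of them belong to Nfkb2 and some of those overlap, so the windows are not independent. The consensus overlaps GGAAATTCC in Nfkbia and is absent from the Icam1 window. The letters TGANTCA, a looser form of the AP-1 site with any middle base, were in 4 member windows, against 6.75%. They read TGACTCA in Tnfaip3 and Lif, TGAGTCA in Il6 and TGAATCA in Nfkb2. These motifs were chosen after the windows had been looked at, and a match describes letters, not binding. Uhrf1 is known for binding CG pairs methylated on a single strand and keeping their methylation through replication. The windows held 15 CG pairs before Icam1, 8 before Nfkbia, 22 and 6 before the starts of Tnfaip3, 21, 19 and 14 before those of Nfkb2, 13 before Ptgs2, 6 before Lif and 3 before Il6, against a median of 6 over all windows. Of all windows, 72.7% held fewer pairs than that of Icam1 and 57.0% fewer than that of Nfkbia. Over the member windows this share ran from 29.0% for Il6 to 85.2% for a start of Tnfaip3. Methylation was not measured here. Below, capitals mark GGAAATTCC in either strand and matches to the kappaB consensus, and each window reads 5′ to 3′ on the strand of its gene, for Icam1 at chr9:21015690-21015939 (plus strand), for Nfkbia at chr12:55492648-55492897 (minus strand) and for Tnfaip3 at chr10:19015411-19015660 (minus strand).
Icam1: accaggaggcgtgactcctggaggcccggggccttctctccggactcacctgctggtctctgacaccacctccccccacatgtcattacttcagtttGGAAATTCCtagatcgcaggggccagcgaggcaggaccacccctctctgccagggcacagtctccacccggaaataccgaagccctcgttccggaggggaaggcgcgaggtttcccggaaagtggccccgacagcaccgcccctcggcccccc
Nfkbia: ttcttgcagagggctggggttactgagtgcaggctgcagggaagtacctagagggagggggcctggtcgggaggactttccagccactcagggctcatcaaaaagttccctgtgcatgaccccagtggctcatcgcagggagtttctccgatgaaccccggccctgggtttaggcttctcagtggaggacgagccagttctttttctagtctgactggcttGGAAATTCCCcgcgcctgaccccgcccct
Tnfaip3: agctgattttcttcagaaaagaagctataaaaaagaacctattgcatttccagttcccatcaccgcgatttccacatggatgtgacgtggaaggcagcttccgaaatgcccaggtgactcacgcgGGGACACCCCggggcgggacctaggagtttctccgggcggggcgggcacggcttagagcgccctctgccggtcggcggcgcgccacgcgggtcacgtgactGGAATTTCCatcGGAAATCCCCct

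Over the 8 tested probes of these genes, 6 stood higher and 2 lower in shUHRF1 cells, where 47.3% of all 10880 tested probes stood higher and 52.7% lower. 0 passed the Benjamini-Hochberg threshold of limma at 0.05, as did 0% of all probes (0 of 10880, with 14.5% at an unadjusted p under 0.05). At an unadjusted p under 0.05, 3 were higher, those of Icam1, Nfkbia and Relb, against 7.65% of all probes, and 0 were lower, against 6.84%. The same 3 probes had every shUHRF1 array above every shSCR array (7.67% of all probes), and 0 had every array below (8.58%). The median difference of the 8 probes was 0.02 on the log2 scale, beside -0.02 over all tested probes. Without shSCR sample 1 the unadjusted calls were Icam1 higher and Tnfaip3 lower, without shSCR sample 2 or without shUHRF1 sample 2 they were Icam1 and Nfkbia, and without shUHRF1 sample 1 they were Icam1, Relb and Nfkbia.

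**Figure D1:**
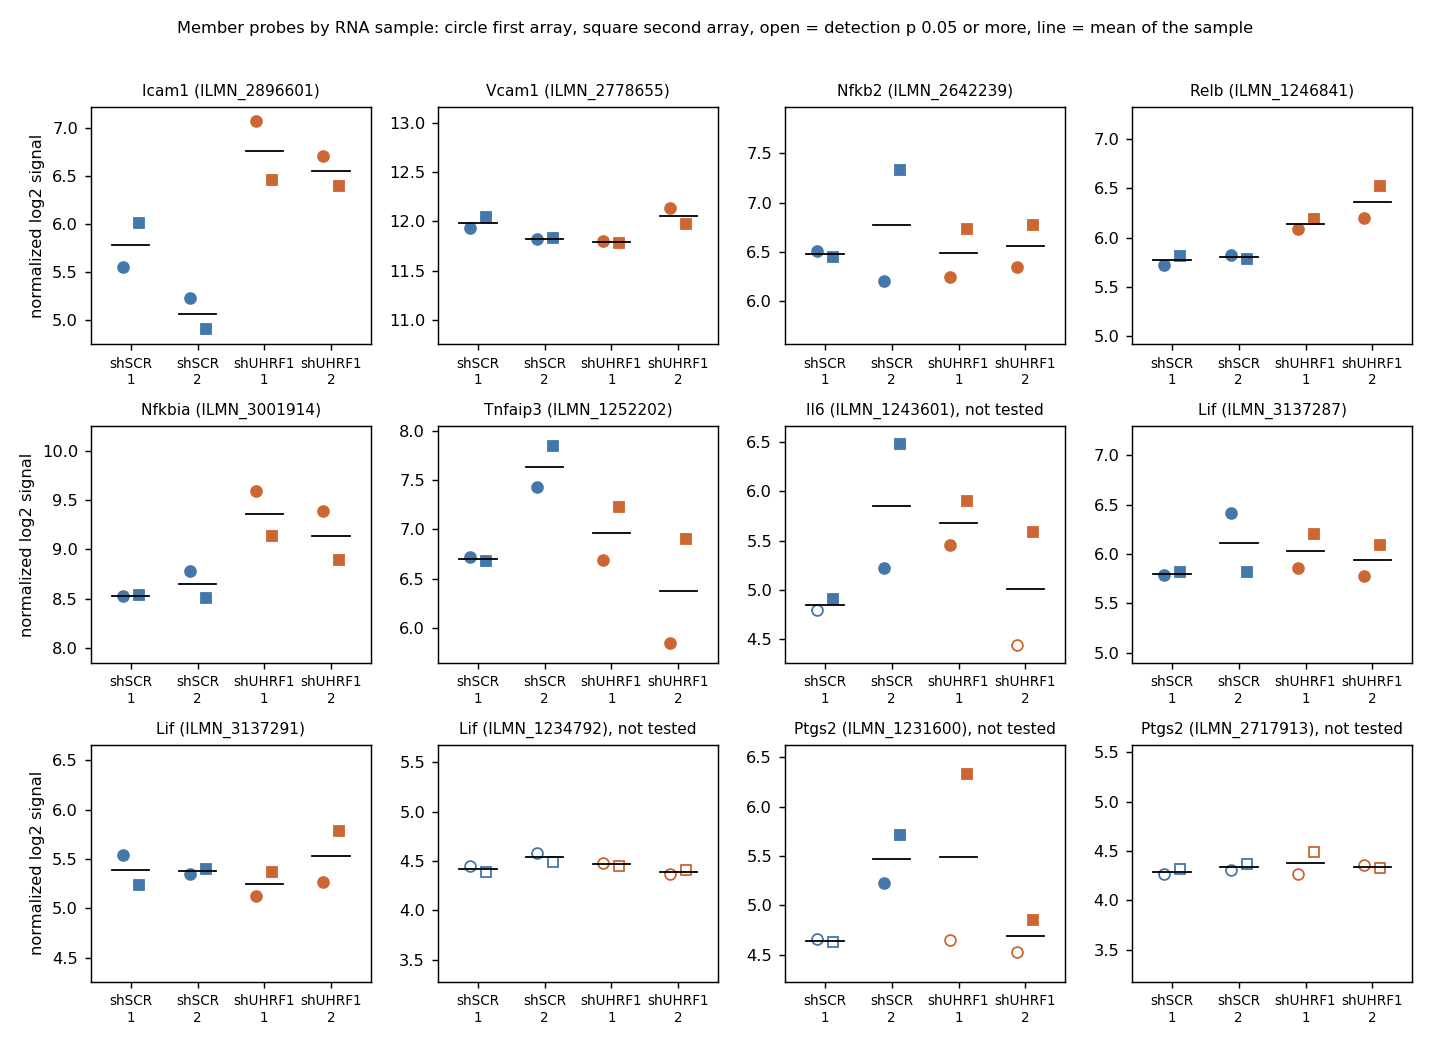
Normalized log2 signal of each of the 12 member probes (vertical axis, a range of its own in each panel) in the 4 RNA samples. Circles are first and squares second arrays, open symbols have a detection p of 0.05 or more, and lines are sample means. Icam1, Relb and Nfkbia separate the groups, with every shUHRF1 array above every shSCR array, while Tnfaip3, Il6 and Ptgs2 differ as much between the 2 shSCR samples as between groups.

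Icam1, the endothelial and smooth muscle ligand for leukocyte integrins, had the largest difference of the members. Its probe ILMN_2896601 stood at 5.56 and 6.01 on the arrays of shSCR sample 1 and at 5.23 and 4.90 on those of shSCR sample 2, on the normalized log2 scale. In shUHRF1 cells it stood at 7.07 and 6.46 in sample 1 and at 6.71 and 6.40 in sample 2. The lowest shUHRF1 array was therefore 0.39 above the highest shSCR array. The difference of 1.23 (SE 0.26, 95% interval 0.59 to 1.87, n = 2 RNA samples per group) is a 2.35-fold higher signal, with a limma adjusted p of 0.287. Both samples contributed alike, at 1.34 and 1.13 over the shSCR mean. The controls differed from each other by 0.71, more than 94.98% of all tested probes did, with shSCR sample 2 the lower. The difference was 1.495 on first arrays alone and 0.97 on second arrays alone, 1.59 without shSCR sample 1 and 0.87 without shSCR sample 2. Its raw signal was 113 to 161 in shSCR, close to the medians of the arrays, and 172 to 236 in shUHRF1. On the arrays of shSCR sample 2 its detection p was 0.015 and 0.038. The dimmest detected value on the second of these arrays was 4.83, so Icam1 was near the detection limit in that control. The size of the difference depended on how background was handled, at 0.80 with a larger offset of 50 and 0.51 with no background correction. It was 0.24 in the authors' processed values, which differ in more than the background step and whose scale is not stated. Icam1 was at an unadjusted p under 0.05 in 18 of the 18 alternatives, beside 16 for Nfkbia, 10 for Relb and 2 for Tnfaip3, and at an adjusted p under 0.05 in 0 of them, with adjusted p from 0.0902 to 0.696.

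Vcam1, the other classic NF-kB adhesion molecule and a ligand of integrin alpha4, did not separate the groups. Its probe ILMN_2778655 was bright, at 11.94, 12.04, 11.82 and 11.83 on the shSCR arrays and 11.80, 11.78, 12.14 and 11.97 on the shUHRF1 arrays, and these ranges overlap. The difference was 0.02 (SE 0.18), with a 95% interval of -0.42 to 0.46, or 0.746-fold to 1.38-fold, and a limma adjusted p of 0.968. The interval leaves out a difference of the size measured for Icam1 in these arrays, and the difference between the 2 genes was not itself tested.

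Of the subunits, Relb and Nfkb2, the partners of the non-canonical branch of the pathway, had differences of opposite sign. The difference between the 2 genes was not itself tested, and their 95% intervals overlap. The Relb probe ILMN_1246841 lay at 5.73, 5.81, 5.82 and 5.79 on the shSCR arrays, a narrow range, and at 6.09, 6.19, 6.20 and 6.52 on the shUHRF1 arrays. All shUHRF1 arrays were higher, by at least 0.27. The difference was 0.46 (SE 0.17, 95% interval 0.05 to 0.88), a 1.38-fold higher signal with a limma adjusted p of 0.317. Relb too was dim, with raw signals of 128 to 152 in shSCR and 157 to 203 in shUHRF1, and the difference was 0.31 with an offset of 50, 0.20 with no background correction and 0.09 in the authors' processed values. Nfkb2, which encodes the p100 precursor of p52, was at 6.51, 6.45, 6.21 and 7.33 on the shSCR arrays and 6.25, 6.73, 6.34 and 6.78 on the shUHRF1 arrays (probe ILMN_2642239). Those values overlap throughout, and the arrays of shSCR sample 2 alone spanned the whole shUHRF1 range. Its difference was -0.10 (SE 0.18, 95% interval -0.54 to 0.34, limma adjusted p = 0.809), and it was 0.046 without shSCR sample 2.

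The feedback inhibitors Nfkbia and Tnfaip3, both known NF-kB targets that shut the pathway off, stood on opposite sides of 0. Nfkbia, which encodes IkB alpha, was at 8.53, 8.54, 8.78 and 8.51 on the shSCR arrays and 9.59, 9.13, 9.39 and 8.89 on the shUHRF1 arrays (probe ILMN_3001914). Every shUHRF1 array was higher, the closest pair 0.11 apart. The difference was 0.66 (SE 0.17, 95% interval 0.24 to 1.09), a 1.58-fold higher signal with a limma adjusted p of 0.287. It was 0.84 on first arrays alone and 0.49 on second arrays alone, and in both shUHRF1 samples the second array was the lower. Nfkbia was well detected, with raw signals of 431 to 498 in shSCR and 617 to 898 in shUHRF1, and moved less with the background handling than Icam1 and Relb did, to 0.56 with no correction and 0.43 in the authors' processed values.

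Tnfaip3, which encodes the ubiquitin-editing enzyme A20, was at 6.72 and 6.68 in shSCR sample 1, 7.43 and 7.85 in shSCR sample 2, 6.69 and 7.23 in shUHRF1 sample 1 and 5.85 and 6.91 in shUHRF1 sample 2 (probe ILMN_1252202). The groups overlap, and shSCR sample 2 stood above all other samples. The difference was -0.50 (SE 0.35, 95% interval -1.35 to 0.35, limma adjusted p = 0.511). It rests on shSCR sample 2, which was 0.94 above shSCR sample 1, a control gap wider than that of 97.8% of tested probes. Without shSCR sample 2 the difference was -0.031, and without shSCR sample 1 it was -0.97. Nfkbia and Tnfaip3 carry GGAAATTCC or its reverse complement at 29 and 24 bases before their starts, and Icam1 at 153 bases, as shown in the windows above.

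**Figure D2:**
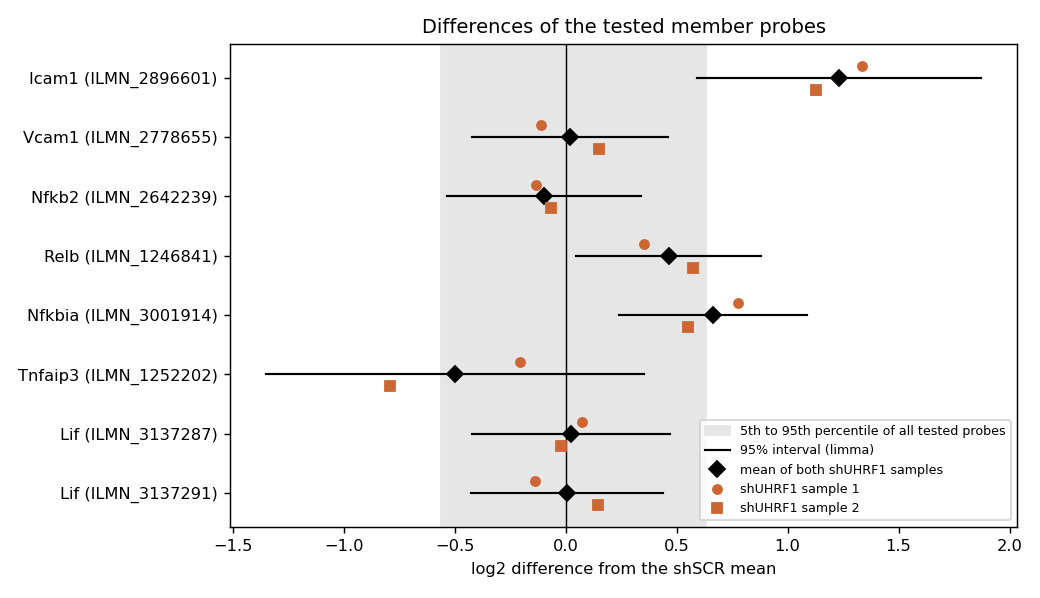
Log2 difference from the shSCR mean (horizontal axis) for the 8 tested member probes. Diamonds are the mean of both shUHRF1 samples with the 95% interval of limma, the circle and square are the samples by themselves, and the grey band holds the middle of all tested probes, from -0.56 to 0.63. Icam1 and Nfkbia lie right of the band, Relb lies inside it, and the other intervals cross 0.

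The cytokine gene Il6 and the prostaglandin enzyme gene Ptgs2 were at or near background, whereas the tested probes of the cytokine gene Lif were dim but detected on all 8 arrays. Il6, the inflammatory cytokine interleukin-6, stood at 4.79, 4.91, 5.22 and 6.48 on the shSCR arrays and 5.46, 5.90, 4.44 and 5.58 on the shUHRF1 arrays (probe ILMN_1243601). The first arrays of shSCR sample 1 and of shUHRF1 sample 2 missed the detection threshold, at 0.0614 and 0.306, and the probe was therefore not tested. Its group means were 5.35 in shSCR and 5.35 in shUHRF1, while the shSCR samples differed by 1.00. In all 4 RNA samples the second array was the higher.

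Lif, leukaemia inhibitory factor of the same cytokine family, had 3 probes. ILMN_3137287 was at 5.78, 5.82, 6.42 and 5.82 on the shSCR arrays and 5.86, 6.20, 5.78 and 6.09 on the shUHRF1 arrays, with a difference of 0.02 (SE 0.18, 95% interval -0.42 to 0.47, limma adjusted p = 0.958). ILMN_3137291 was at 5.55, 5.24, 5.35 and 5.40 against 5.13, 5.37, 5.27 and 5.79, with a difference of 0.00410 (SE 0.18, 95% interval -0.43 to 0.44, limma adjusted p = 0.991). Groups overlap on both. The sign depended on the array number, since both probes were lower in shUHRF1 on first arrays (-0.28 and -0.25) and higher on second arrays (0.33 and 0.26). The other Lif probe, ILMN_1234792, was not detected on any array.

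Ptgs2, which encodes the inducible cyclooxygenase COX-2, was at 4.66, 4.63, 5.23 and 5.71 on the shSCR arrays and 4.65, 6.33, 4.52 and 4.85 on the shUHRF1 arrays (probe ILMN_1231600). It was detected on 4 of 8 arrays, both of shSCR sample 2 and the second arrays of the shUHRF1 samples, and was not tested. The arrays of shUHRF1 sample 1 held both a value near the lowest and the highest of all 8. Its other probe, ILMN_2717913, was not detected on any array. Il6, Ptgs2 and Tnfaip3 shared a direction in the controls, each higher in shSCR sample 2 than in sample 1, by 1.00, 0.83 and 0.94, whereas Icam1 was lower there by 0.71. The control samples therefore differed from each other in both directions across these genes.

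**Figure D3:**
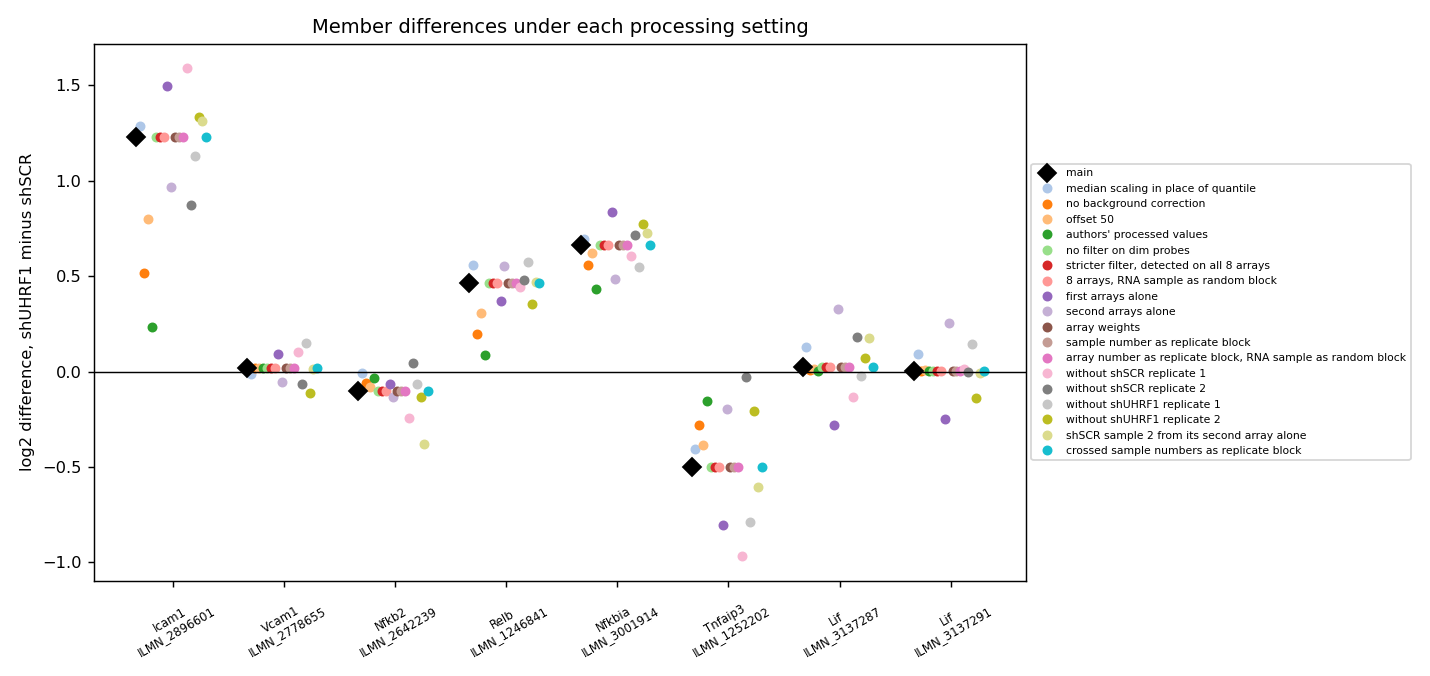
Log2 difference of each tested member probe (vertical axis) under the setting used here (black diamonds) and 18 alternatives (coloured points). Icam1, Relb and Nfkbia stay above 0 and Tnfaip3 below 0 under the settings drawn, with Icam1 spread from 0.24 to 1.59, and the probes of Vcam1, Nfkb2 and Lif fall on either side of 0.

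Other genes of the pathway were set beside the members by lists of upstream receptors, kinases and subunits, inhibitors and related responses, each gene by its brightest tested probe. Of all 7502 tested genes, 3635 stood higher and 3867 lower, and the median difference was -0.01. An unadjusted limma p under 0.05 came with a positive difference in 7.9% of them and with a negative one in 6.62%. 0 genes of any of these lists passed the adjusted threshold of limma. Tlr6, Ticam1, Il1r1, Nfkbie, Il11, Pim1, Mcam and Il15 entered the test only through shUHRF1. Jak1, Icam4 and Ccl5 entered only through shSCR. The direction of a gene that entered through 1 group is no support, and the counts below include such genes.

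Among receptors and adaptors 17 of 28 genes were tested, 12 of them higher and 5 lower, with a median of 0.07. Tnfrsf1a, the main receptor for tumour necrosis factor, was the 1 at an unadjusted p under 0.05, with a mean of 6.59 in shSCR and 7.09 in shUHRF1 (log2 difference 0.50, SE 0.17). Of 10 tested kinases and subunits, 5 were higher and 5 lower, with a median of -0.0041 and 0 at an unadjusted p under 0.05. The widest differences, named after their values were seen, were -0.42 (SE 0.28) for Tab2, an adaptor of the kinase TAK1, and 0.41 (SE 0.26) for Ikbkg, which encodes the IKK regulatory subunit NEMO. Rela, the transactivating subunit of the canonical pathway, was at 10.78 and 10.68 in shSCR and 10.88 and 10.75 in shUHRF1.

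Inhibitors and feedback genes other than the members were higher in 10 of 13 tested, with a median of 0.12 and 0 at an unadjusted p under 0.05. The IkB family genes Nfkbie and Nfkbiz, named after their values were seen, differed by 0.43 (SE 0.21) and 0.54 (SE 0.26), and Nfkbib by -0.13 (SE 0.18). 1 shSCR array lacked a detected Nfkbie signal, so Nfkbie entered the test only through shUHRF1 and its difference is a description.

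Of the IL-6 family signalling genes 12 of 17 were tested, 7 higher and 5 lower, with a median of 0.05. Osmr, the oncostatin M receptor subunit, was at an unadjusted p under 0.05 and had every shUHRF1 array above every shSCR array. It stood at sample means of 8.34 and 7.68 in shSCR and 9.30 and 8.85 in shUHRF1 (log2 difference 1.06, SE 0.28). Il11, a cytokine of that family, was detected on 4 shUHRF1 arrays and on 1 of the 4 shSCR arrays. It entered the test only through shUHRF1, so its p is no support, and its sample means of 4.58 and 4.82 in shSCR and 6.26 and 5.31 in shUHRF1 are given as a description. Il6st, the shared receptor subunit gp130, differed by -0.23 (SE 0.19).

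The prostaglandin list had 5 of 19 genes tested and a median of 0.05, with the transporter gene Slco2a1 lower at -0.43 (SE 0.17). Adhesion molecules and integrins had 9 of 21 tested, 7 of them higher, with a median of 0.13. F11r, the junctional adhesion molecule JAM-A, had a mean of 7.64 in shSCR and 8.54 in shUHRF1 (log2 difference 0.90, SE 0.18). Mcam, the adhesion molecule CD146, likewise entered only through shUHRF1, detected on 4 arrays there and on 2 in shSCR, and its sample means were 4.69 and 4.76 in shSCR and 5.82 and 5.198 in shUHRF1. The integrin subunit Itgb1, the partner chain in the Vcam1 receptor, differed by 0.05 (SE 0.22).

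Other NF-kB targets were higher in 9 of 15 tested genes, and their median was 0.12. Tnc, which encodes the matrix protein tenascin C, was higher by 1.62 (SE 0.46), with shSCR samples at 6.19 and 7.63, a control gap of 1.44, and shUHRF1 samples at 8.81 and 8.25. Mmp3, a matrix metalloproteinase, was higher by 1.46 (SE 0.35), with the shUHRF1 samples at 0.93 and 2.00. The first array of the lower sample, shUHRF1 sample 1, was at 7.05 and lay below all 4 shSCR arrays. Fas, a death receptor, was higher by 0.72 (SE 0.27), at 1.10 in shUHRF1 sample 1 and 0.34 in sample 2. The chemokine gene Ccl5 was not detected on any shUHRF1 array and lay lower by at least 1.38-fold, a bound set against the dimmest detected signal. Its adjusted p of 0.287 by limma is no support, since it entered the test only through shSCR and its shUHRF1 values are below detection. The chemokine genes Ccl2 and Cxcl1, named after their values were seen, were at -0.62 (SE 0.31) and -0.60 (SE 0.45). Ccl2 was at -0.50 and -0.74 in the shUHRF1 samples, whereas Cxcl1 was at -1.30 in sample 1 and 0.093 in sample 2, so its sign rests on sample 1.

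**Figure D4:**
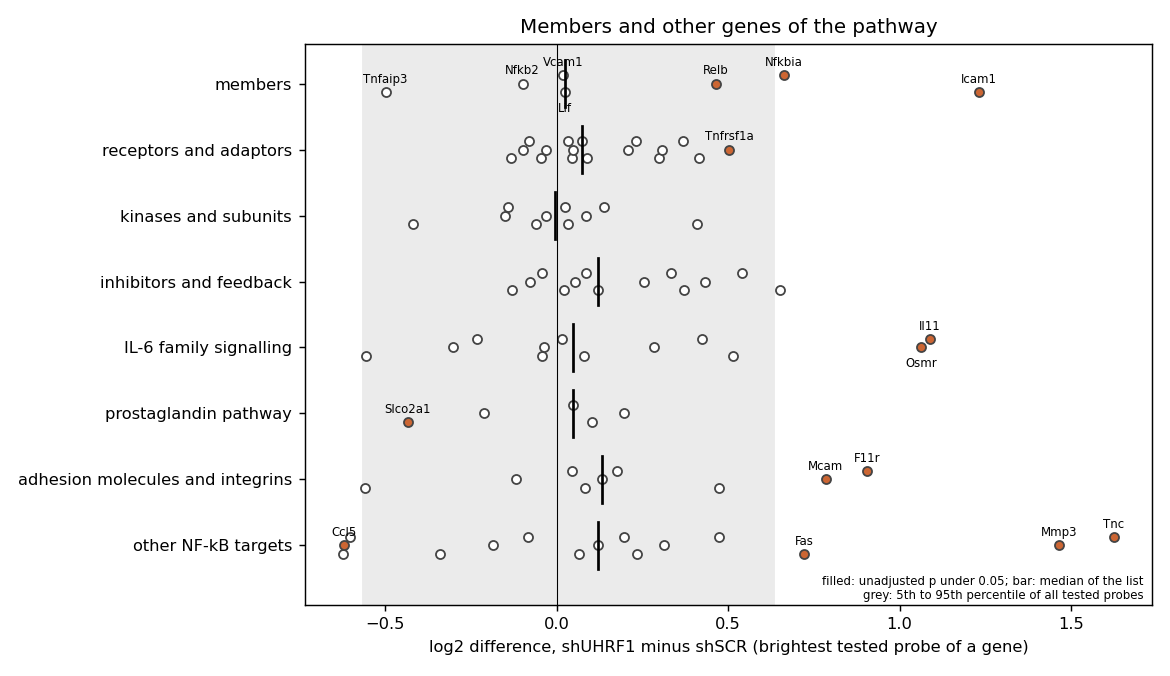
Log2 difference (horizontal axis) of each tested gene, in rows by list, with filled points for an unadjusted p under 0.05, bars for list medians and a grey band from the 5th to the 95th percentile of all tested probes. List medians lie between -0.0041 and 0.13, and the filled points right of the band include Icam1, Osmr, F11r, Tnc and Mmp3, and also Il11 and Mcam, which were not detected on all shSCR arrays.

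The genes whose 8 array values lay closest to those of Icam1, each centred on its shSCR mean, were Tgfb2, Vmac and Uap1l1. Their root mean square differences from Icam1 were 0.20, 0.24 and 0.24 on the log2 scale over 8 arrays of 4 RNA samples. Tgfb2 encodes a TGF-beta ligand and differed by 1.22 (SE 0.27) between groups, Vmac by 1.09 (SE 0.19) and Uap1l1 by 1.17 (SE 0.23). These genes were picked for their closeness to Icam1, so differences near that of Icam1 follow from the selection and are no support.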

How the data were processed

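The deposited signal is a mean bead intensity per probe and array with a detection p-value, per the file headers, and was not normalized between arrays by the authors; the submitters' processing notes name GenomeStudio 2011.1. The authors' processed values, which look like log2 values (lumi is named in those notes, the log base and transform are not stated, and the median is 7.86 in every column), served as an alternative. Of 25671 probes 2 had unreadable entries and were left out. Signals were corrected and quantile-normalized with neqc (limma 3.58.1, R 4.3.3, offset 16), both arrays of an RNA sample were reduced to their mean, and limma (lmFit and eBayes, without a block) compared the groups of 2 RNA samples each. Benjamini-Hochberg adjustment ran over all 10880 tested probes. The fit was tested on simulated data. Differences are shUHRF1 minus shSCR in log2. The number of RNA samples, 2 per group, limits the precision.

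Members and lists were chosen with earlier results of these data known. The text names every member and, from each list, up to 4 genes at an unadjusted p under 0.05 by size of difference, unless it says otherwise. For the pairing check, the arrays' differences between first and second array correlated between RNA samples at 0.12 to 0.55, so arrays of the same number deviate together, for a reason the labels do not give, and first and second arrays are also given apart. Sample numbers of the titles did not pair samples: deviations of the samples numbered 1 correlated at -0.15. Probe names come from the platform annotation and upstream sequences from RefSeq.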

Additional observations from a re-analysis of the deposited data

Results flagged for a closer look

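Within the 4 arrays of each group, a value far from the other 3 was looked for in the 8 tested member probes, 16 checks in all. Chance would mark about 1 in 20 if the 4 arrays were independent. They are repeats of 2 RNA samples, so that rate is not known to hold here. 2 were marked, both for the first array of shSCR sample 2. For Nfkbia the gap of that array (8.78) to the nearest of the others was 0.907 of the whole range of the shSCR arrays, and for the Lif probe ILMN_3137287 (6.42) it was 0.945. That array also had the lowest median raw signal, 103.4. With shSCR sample 2 taken from its second array alone, a setting chosen after the data were seen, the Nfkbia difference was 0.73 and that of the Lif probe 0.17, while Nfkb2 moved further, from -0.10 to -0.38.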

How the results depend on the processing

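In 18 alternatives Icam1, Relb, Nfkbia and Tnfaip3 kept their direction, and 0 of the 8 member probes passed the adjusted threshold. Over all probes 0 passed, against 3 with all 8 arrays under a random block for RNA sample, 1 on second arrays, 1 with the sample number as a replicate block, 2 with the array number as a replicate block and 2 with crossed sample numbers, and the blocks changed no member's adjusted call. At an unadjusted p under 0.05 the sample-number block left 2 members higher, without Relb, and the crossed block added Tnfaip3 lower. At an unadjusted p under 0.05, median scaling gave 1006 higher and 474 lower probes against 832 and 744. The member median was 0.29 on second arrays and -0.021 to 0.15 without 1 replicate. Signs turned for Vcam1 with median scaling (-0.012), on second arrays (-0.057) and without 1 replicate (-0.11 to 0.15), for Nfkb2 without 1 replicate (-0.24 to 0.046), and for Lif probes on first arrays (-0.28 and -0.25), without 1 replicate (-0.13 to 0.18 and -0.14 to 0.14) and, for ILMN_3137291, with shSCR sample 2 from its second array (-0.0095). The cause was not tested. Detection limits Il6 and Ptgs2.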
